A study of Homo sapiens with 12 samples.

Results

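Olaparib given alone was compared with its solvent in SBC5 cells, an established human line of small cell lung cancer labelled as wild type. The comparison takes 6 of the series' 12 RNA sequencing libraries: 3 from cells in 1 µM olaparib and 3 from cells in dimethyl sulfoxide, called vehicle here, none of them irradiated. The other 6 serve below as libraries outside the comparison: 3 from cells that received 4 Gy of gamma rays in dimethyl sulfoxide (radiation) and 3 from cells that received olaparib 2 hours before the same dose (combination). RNA was collected at 3 days in each group. The labels do not say whether the 3 libraries of a group came from separate cultures, so p-values measure the spread between libraries, which may be technical. Libraries carry the number of their label, as in olaparib 1.

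Olaparib blocks the catalytic site of PARP1 and PARP2, enzymes that sense DNA strand breaks and build chains of ADP-ribose on nearby proteins so that repair factors gather. Inhibited PARP also stays trapped on DNA, and forks that run into it need homologous recombination, the pathway of BRCA1 and BRCA2, to restart. Cells with unrepaired breaks can arrest through checkpoints, and DNA that leaks into the cytosol can be read by cGAS and STING, which drive interferon-stimulated genes and chemokines such as CCL5 and CXCL10.

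Total counts were 27007693 to 34103877 in the 3 vehicle libraries, 38804959 in olaparib 1, 17725121 in olaparib 2 and 16201335 in olaparib 3, and 14300459 to 30010709 in the other 6. Levels below are counts-per-million values (CPM) after scaling on genes with a mean of at least 20 CPM, and each log2 change is edgeR's, with its standard error (SE). A level in bulk RNA cannot tell fewer cells of a kind from less RNA per cell.

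Olaparib 2 and olaparib 3 stood apart from olaparib 1 in genes that SBC5 hardly expresses. The 381 olfactory receptor genes, odour sensors of the nasal lining, summed to between 368.7 and 455.4 CPM in vehicle. Their sum was 374.4 CPM in olaparib 1, 2056 CPM in olaparib 2 and 2291 CPM in olaparib 3. Olaparib 1 thus lay inside the vehicle range, and olaparib 2 and 3 lay far above it. In each of these libraries 345 of the receptor genes had a count, against 153 in olaparib 1 and 142 to 163 in vehicle. A set of 66 tissue-restricted genes summed to 35.4 to 43.9 CPM in vehicle, 34.1 CPM in olaparib 1, 298.8 CPM in olaparib 2 and 302.7 CPM in olaparib 3. Genes with a count numbered 31627 to 35210 in vehicle and 33491 in olaparib 1, but 49263 in olaparib 2 and 49550 in olaparib 3, although these 2 libraries were the shallowest of the 6.

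PCSK5, a protease that cuts precursor proteins, rose too, although it was not silent in vehicle. It had 1473, 219.6 and 35.4 CPM in vehicle 1, 2 and 3, and 215.1 CPM in olaparib 1. In olaparib 2 it had 36990 CPM and in olaparib 3 it had 36170 CPM, or 3.37% and 3.28% of all counts in these libraries (95% Wilson intervals 3.36% to 3.38% and 3.27% to 3.29%, which cover counting error only). Vehicle itself spread widely for this gene. Radiation 3, outside the comparison, had never met olaparib and showed the same features at a lower level: 908.5 CPM over the olfactory receptors, 95.5 CPM over the tissue-restricted genes and 11650 CPM of PCSK5. Radiation 1 and 2 had 338.3 and 473.8 CPM over the olfactory receptors, and the combination libraries had 432.7 to 477.8 CPM.

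**Figure D1:**
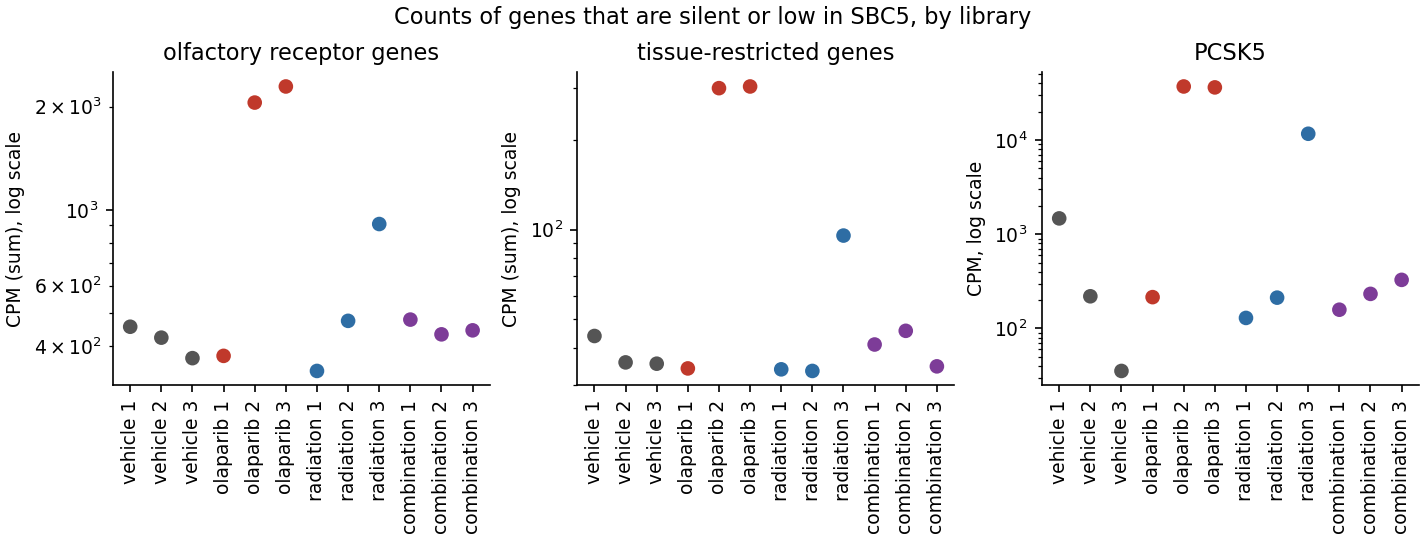
Levels in CPM in each of the 12 libraries (1 point a library, colour by group, log axes). Panels show the sum over the olfactory receptor genes, the sum over 66 tissue-restricted genes, and PCSK5, which was not silent in vehicle. Olaparib 2, olaparib 3 and radiation 3 lie above the other 9 libraries in each panel, and olaparib 1 lies with vehicle.

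Among genes that passed the count filter, the median rise grew as the level in vehicle fell. The filter kept the lowest genes mainly through the libraries in which they are high, so medians of low genes partly reflect it. Among 3637 genes under 0.1 CPM in vehicle, the median log2 ratio to the vehicle mean, with 0.5 CPM added to both, was 0 in olaparib 1, 2.16 in olaparib 2 and 2.22 in olaparib 3. It shrank step by step to 0.00 in olaparib 2 and -0.01 in olaparib 3 for 4302 genes at 20 to 100 CPM. For 1379 genes at 100 CPM or more it was -0.14 and -0.19, against -0.01 in olaparib 1. Radiation 3, set against radiation 1 and 2, followed the same course from 1.17 to -0.05. Over 10877 genes of at least 5 CPM in vehicle, the median absolute log2 difference between a vehicle library and olaparib 1 was 0.125 to 0.152, which overlaps the 0.128 to 0.145 between vehicle libraries. The same measure was 0.281 to 0.315 between vehicle and olaparib 2 or 3, and 0.169 between olaparib 2 and olaparib 3.

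**Figure D2:**
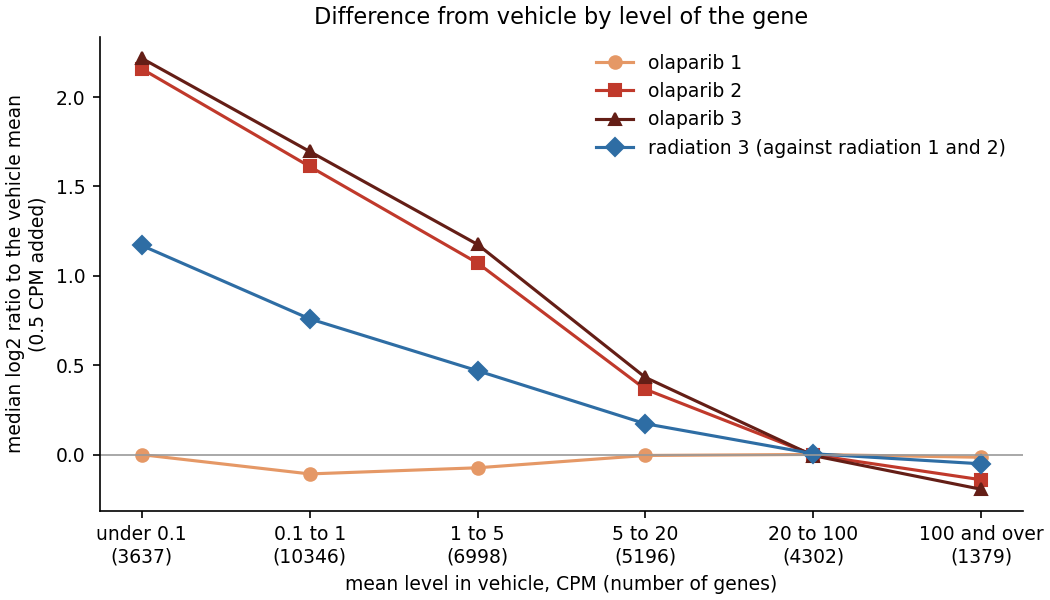
Median log2 ratio to the vehicle mean (0.5 CPM added) by the gene's mean level in vehicle, for olaparib 1, 2 and 3, and for radiation 3 against radiation 1 and 2. Genes shown passed the count filter, which kept low genes mainly through the libraries in which they are high. Olaparib 2 and 3 start at 2.16 and 2.22 in the lowest class and end at -0.14 and -0.19 in the highest, radiation 3 runs between 1.17 and -0.05, and olaparib 1 stays between -0.11 and 0.00.

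With all 3 olaparib libraries against all 3 vehicle libraries, edgeR's quasi-likelihood test called 3 of 31858 genes (0.00942%), all lower in olaparib. They were HSPA5, the main chaperone of the endoplasmic reticulum (log2 -0.75, SE 0.09, adjusted p = 0.0198), PABPC1, the protein that coats poly(A) tails (log2 -0.51, SE 0.06, adjusted p = 0.0154), and CCN1, a secreted matrix protein induced early by serum (log2 -0.80, SE 0.09, adjusted p = 0.0154). At an unadjusted p under 0.05, 10792 genes were higher and 704 lower. Of the genes tested, 4549 (14.3%) had each olaparib library above each vehicle library and 912 (2.86%) had each below. With the log2 olfactory receptor sum as a covariate, edgeR called 4 genes, again lower: these 3 and ANP32B, a nuclear histone chaperone. That sum is high in olaparib 2 and 3 and not in olaparib 1, so the adjusted difference leans on olaparib 1. The call of 3 genes without the covariate rests on single libraries. There edgeR called 0 genes without vehicle 1, 2 or 3, without olaparib 2, or without combination 3. These fits had 6825 to 10803 genes at an unadjusted p under 0.05. Without olaparib 1, edgeR called 13682.

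To ask which genes moved alike, olaparib 1 and the pair olaparib 2 and 3 were each compared with vehicle in 1 fit of all 12 libraries. These 2 contrasts share the vehicle libraries. In olaparib 1, edgeR called 3 of 31858 genes (0.00942%), none higher and 3 lower: HSPA5, ANP32B and ACSM2B, with 407 higher and 801 lower at an unadjusted p under 0.05. In olaparib 2 and 3 it called 15525 genes higher (48.7%) and 1323 lower (4.15%). This balance depends on the scaling. With scaling factors from all genes, 10118 were higher and 7583 lower, and the median log2 change moved from 1.33 to 0.54. The share of rises also reflects the filter, which kept low genes mainly through the libraries in which they are high. At 20 to 100 CPM in vehicle, 19.1% of 4302 genes were higher and 13.1% lower. A gene counted as changed the same way if both contrasts passed in 1 direction and the 3 olaparib libraries lay on 1 side of the 3 vehicle libraries. One gene of 31858 (0.00314%) met this, HSPA5.

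HSPA5 codes for BiP, which folds proteins entering the secretory pathway and holds the sensors of the unfolded protein response in check. Its level was 786.5, 827.8 and 850.0 CPM in vehicle and 437.8, 510.7 and 515.1 CPM in olaparib 1, 2 and 3. All 3 olaparib libraries lay well under the lowest vehicle library, and the one without raised olfactory receptor counts was the lowest. The fall was -0.91 on the log2 scale in olaparib 1 (SE 0.10, edgeR adjusted p = 0.00134) and -0.68 in olaparib 2 and 3 (SE 0.08, adjusted p = 1.6e-06). Radiation and combination libraries also lay under vehicle, at 538.0 to 603.4 CPM and 458.1 to 577.6 CPM, and the combination did not differ from radiation 1 and 2 beyond the spread (log2 -0.16, adjusted p = 0.5).

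The start of HSPA5 carries an endoplasmic reticulum stress element, the letters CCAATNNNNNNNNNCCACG, at which the factors ATF6 and XBP1 act with NF-Y. The stretch is shown because HSPA5 is the gene that both contrasts called in the same direction. It runs from 96 to 18 bases before the RefSeq start, on the minus strand at chr9:125241361-125241439 of GRCh38.p14, with the element in capitals.
HSPA5: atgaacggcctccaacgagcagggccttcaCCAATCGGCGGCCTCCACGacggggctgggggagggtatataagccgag

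Searched on both strands, these letters stand in 27 of 35116 RefSeq promoter windows (0.0769%) of 250 bases before to 50 after the start. Of 18 listed chaperone and folding genes of the endoplasmic reticulum, 17 had a window and 7 held the element: HSPA5, HSP90B1, PDIA6, CALR, CANX, CRELD2 and XBP1. In olaparib 1, HSPA5 fell and the other 6 did not pass the test, with log2 values of -0.20, 0.00, -0.07, 0.07, -0.48 and 0.00 in that order after HSPA5. In olaparib 2 and 3, HSPA5, PDIA6 (log2 -0.37, adjusted p = 0.000473), CALR (log2 -0.26, adjusted p = 0.00872) and XBP1 (log2 -0.40, adjusted p = 0.0136) fell by edgeR. A match of letters is no evidence of binding. The 18 listed genes had a median level of 69.5 CPM in vehicle. Of all genes at 20 to 100 CPM in vehicle, 13.1% fell in olaparib 2 and 3, and 43.7% of those at 100 CPM or more did. Over all 18 genes the median log2 change was -0.03 in olaparib 1 (1 called) and -0.20 in olaparib 2 and 3 (7 lower, 0 higher), against -0.04 and 1.33 over all genes tested and 0.00 and 0.10 over genes of at least 5 CPM.

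The count of 1 gene grew to 10 without olaparib 2 and to 11 without olaparib 3, and was 1 without radiation 3. When all 3 libraries with raised olfactory receptor counts were left out of the olaparib 1 contrast, a choice made after the data were seen, 9 libraries and 30967 genes remained and edgeR called 25 genes (0.0807%), 3 higher and 22 lower. In simulated data this 9-library fit called unchanged genes more often than its threshold allows for, so some of the 25 may be false calls. Of these, 18 also passed in olaparib 2 and 3 in the same direction with no overlap between the olaparib and vehicle libraries, 1 higher and 17 lower. A lone library is assumed here to vary like the others. The plot of both contrasts shows the falls under this rule that had at least 20 CPM in vehicle. They lie in the lower left, where the rule places them. Apart from them stands a column of genes that rose in olaparib 2 and 3, with small changes in olaparib 1.

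**Figure D3:**
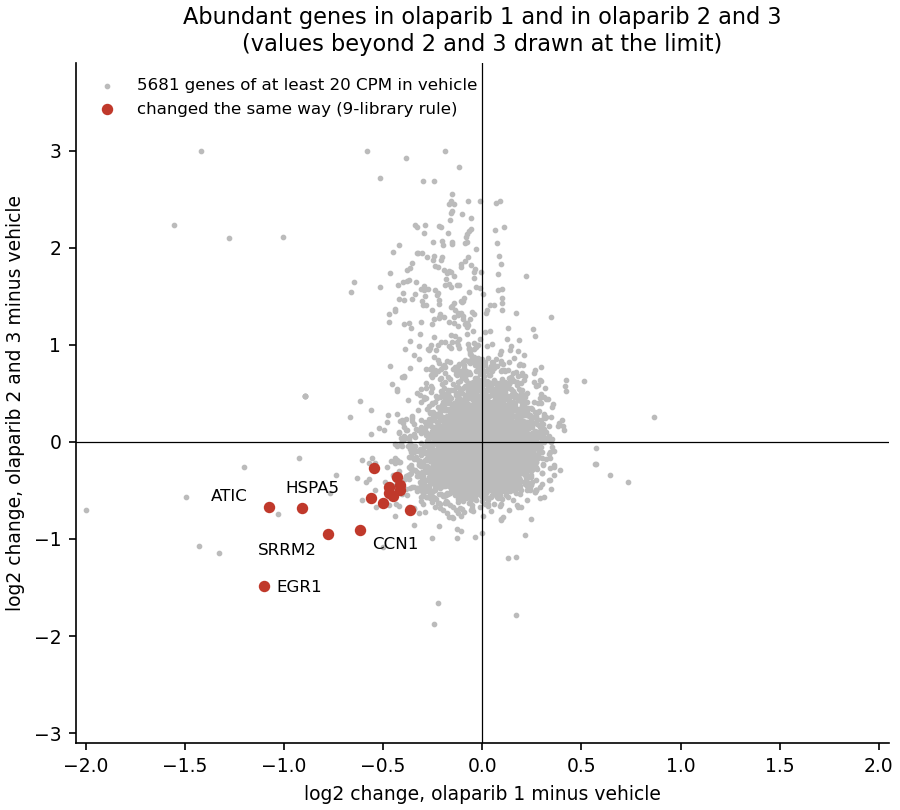
Log2 change in olaparib 1 (x axis) and in olaparib 2 and 3 (y axis), each minus vehicle, for 5681 genes of at least 20 CPM in vehicle; red points are genes changed the same way under the 9-library rule. EGR1 lies at -1.10 and -1.48, HSPA5 at -0.91 and -0.68, and many grey points rise on the y axis with x values close to 0; both axes share the vehicle libraries.

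EGR1, a zinc finger transcription factor that growth factor signals switch on within minutes, had 45.3, 43.9 and 42.3 CPM in vehicle and 20.4, 10.4 and 21.1 CPM in olaparib 1, 2 and 3. The groups do not overlap, and olaparib 2 was the lowest. Its fall was -1.10 in olaparib 1 (SE 0.20, edgeR adjusted p = 0.00463 in 9 libraries, but adjusted p = 1 in 12) and -1.48 in olaparib 2 and 3 (SE 0.26, adjusted p = 0.00058). CCN1 had 95.3, 91.9 and 95.7 CPM in vehicle and 61.5, 50.0 and 50.4 CPM in olaparib 1, 2 and 3, so each olaparib library was about 30 CPM or more below vehicle. It fell by 0.62 in olaparib 1 (SE 0.11, adjusted p = 0.00279 in 9 libraries, 0.0868 in 12) and by 0.91 in olaparib 2 and 3 (SE 0.09, adjusted p = 1.41e-07).

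The promoter of EGR1 holds the CArG box, the site of serum response factor, which drives immediate early genes. It is printed for its 2 boxes, in capitals, which start 105 and 83 bases before the RefSeq start. The stretch lies on the plus strand at chr5:138465349-138465430 of GRCh38.p14.
EGR1: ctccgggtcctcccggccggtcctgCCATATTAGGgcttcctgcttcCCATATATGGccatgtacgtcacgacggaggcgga

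A CArG box on either strand was found in 454 of the 35116 windows (1.29%). Of the 18 genes changed the same way, 11 had a window, and EGR1 and HNRNPD held a box.

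Several of the 18 genes code for proteins that act on RNA; they are placed together by known role, after their values were seen, and their number was not tested. PABPC1 had 1627, 1563 and 1505 CPM in vehicle and 1130, 1014 and 1160 CPM in olaparib 1, 2 and 3, with no overlap. It fell by 0.47 in olaparib 1 (SE 0.07, edgeR adjusted p = 8.54e-05 in 9 libraries, 0.0861 in 12) and by 0.53 in olaparib 2 and 3 (SE 0.06, adjusted p = 2.3e-06). SRRM2, the large scaffold of nuclear speckles, had 564.6, 528.6 and 590.5 CPM in vehicle and 327.7, 202.4 and 380.8 CPM in olaparib 1, 2 and 3. The olaparib libraries differ among themselves here but stay under vehicle; log2 changes were -0.77 (SE 0.09, adjusted p = 3.67e-07 in 9 libraries, but adjusted p = 1 in 12) and -0.95 (SE 0.25, adjusted p = 0.0187).

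SRRM1, a partner of SRRM2 in splicing, had 270.5 to 290.6 CPM in vehicle and 205.5, 154.0 and 229.1 CPM in olaparib (9-library log2 -0.45, edgeR adjusted p = 0.0188). HNRNPD, which binds AU-rich elements and speeds mRNA decay, had 103.5 to 119.7 CPM in vehicle and 76.5, 66.6 and 84.5 CPM in olaparib (log2 -0.56, adjusted p = 0.0152). HNRNPA2B1, a nuclear RNA-binding protein, had 609.6 to 704.0 CPM and 503.6, 453.9 and 531.1 CPM (log2 -0.41, adjusted p = 0.0152). In each of these 3 genes olaparib 2 was the lowest library and olaparib 3 the highest of the olaparib group. EIF3C, a subunit of the translation initiation factor eIF3, had 288.5 to 328.4 CPM in vehicle and 229.9, 207.3 and 226.6 CPM in olaparib (log2 -0.41, adjusted p = 0.0416). It is uncertain, since its near-identical copy EIF3CL could share reads.

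Of 20 listed spliceosome and nuclear speckle genes, 11 had each olaparib library below each vehicle library, 10 fell in olaparib 2 and 3 and 1, SRRM2, fell in olaparib 1 with 9 libraries. The background is 2.86% for all genes on the first of these measures and 22.8% for genes at 100 CPM or more. For falls in olaparib 2 and 3 it is 4.15% for all genes and 43.7% for genes at 100 CPM or more. The listed genes had a median level of 172.3 CPM in vehicle. The list's median was -0.10 in olaparib 1 and -0.30 in olaparib 2 and 3. SRSF6, a splicing regulator, shows the common pattern: 75.1 to 80.8 CPM in vehicle and 57.9, 54.3 and 58.1 CPM in olaparib. It passed in olaparib 2 and 3 (log2 -0.47, edgeR adjusted p = 0.000367) and not in olaparib 1 (log2 -0.43, adjusted p = 0.337 in 9 libraries). Of 20 genes of mRNA decay and AU-rich element binding, 7 lay below vehicle without overlap, with medians of -0.07 and -0.16. AGO2, the slicer of RNA interference, went the other way: it had 75.5 to 86.2 CPM in vehicle and 67.0 CPM in olaparib 1, but 506.8 and 511.9 CPM in olaparib 2 and 3 (log2 2.68, adjusted p = 7.5e-13) and 164.5 CPM in radiation 3.

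Transcripts of the mitochondrial genome, which code for subunits of the respiratory chain and ATP synthase, lay lower as a group. MT-ND4, a subunit of complex I, had 12820 to 13670 CPM in vehicle and 9288, 7381 and 9631 CPM in olaparib 1, 2 and 3. It fell by 0.50 (SE 0.06, edgeR adjusted p = 1.78e-06 in 9 libraries, but adjusted p = 1 in 12) and by 0.63 (SE 0.10, adjusted p = 0.000343). MT-ATP6, of ATP synthase, had 1912 to 2169 CPM in vehicle and 1543, 1459 and 1777 CPM in olaparib (log2 -0.43, adjusted p = 0.00141 in 9 libraries). MT-ND4L, next to MT-ND4 on 1 transcript, had 2227 to 2365 CPM and 1780, 1266 and 1563 CPM (log2 -0.36, adjusted p = 0.00463). None of the 3 overlaps between olaparib and vehicle.

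Of the 13 mitochondrial mRNAs, 8 had each olaparib library below each vehicle library, 9 fell in olaparib 2 and 3, and 3 fell in olaparib 1 with 9 libraries. Of all genes of at least 100 CPM in vehicle, 22.8% lay below vehicle without overlap and 43.7% fell in olaparib 2 and 3. The median of the 13 was -0.29 in olaparib 1 and -0.36 in olaparib 2 and 3, and it was negative under each scaling tried. Radiation 1 and 2 had a median of -0.75 against vehicle, without olaparib. Exceptions in olaparib 2 and 3 were MT-ND2, MT-ND5, MT-ND6 and MT-CYB, at log2 0.05 to 0.12. MT-ND3, another subunit of complex I, had 343.2 to 350.0 CPM in vehicle and 311.2, 245.5 and 291.0 CPM in olaparib, which passed in olaparib 2 and 3 (log2 -0.37, edgeR adjusted p = 0.000531) and not in olaparib 1 (log2 -0.15, adjusted p = 1). The mitochondrial ribosomal RNA MT-RNR2 took 30.2% to 32.2% of counts in vehicle, 32.2% in olaparib 1, 27.2% in olaparib 2 and 23.4% in olaparib 3.

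The other falls were NEFH, a neurofilament subunit (116.1 to 122.7 CPM in vehicle, 85.9, 78.9 and 93.1 CPM in olaparib), ATIC, the enzyme of the last steps of purine synthesis (24.5 to 30.5 CPM, then 12.95, 12.1 and 22.2 CPM), CSGALNACT2, which starts chondroitin sulfate chains (65.2 to 71.2 CPM, then 47.0, 53.1 and 60.8 CPM), and RNF26, a ubiquitin ligase of the endoplasmic reticulum (18.7 to 20.1 CPM, then 9.48, 10.6 and 13.95 CPM). With 9 libraries their log2 changes in olaparib 1 were -0.47, -1.07, -0.54 and -1.03 (edgeR adjusted p = 0.0438, 0.00922, 0.0416 and 0.035). The pseudogene ENSG00000283537 had 2.48 to 3.05 CPM in vehicle and was listed at 0 in the 3 olaparib libraries and in radiation 3. The single rise was NUDT4B, with 0.352, 0.736 and 0.947 CPM in vehicle and 5.26, 6.19 and 10.9 CPM in olaparib (log2 2.93 in olaparib 1, SE 0.54, adjusted p = 0.00328). It is uncertain, because its reads can belong to the near-identical NUDT4, a diphosphoinositol phosphatase gene, at 54.1 CPM in vehicle and 51.8 CPM in olaparib 1.

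Single libraries decided several of these calls. With each of the 11 libraries other than olaparib 1 left out in turn, between 11 and 24 genes met the rule. EGR1, CCN1, HSPA5, PABPC1, SRRM2, NUDT4B, MT-ND4, MT-ATP6, MT-ND4L and ENSG00000283537 met it each time. Without vehicle 1, edgeR's adjusted p in olaparib 1 was 0.0975 for NEFH, 0.0893 for HNRNPA2B1, 0.0975 for HNRNPD, 0.104 for CSGALNACT2 and 0.0926 for RNF26. Without vehicle 2 the same 5 genes, SRRM1 and EIF3C had 0.0567 to 0.188, and EIF3C had 0.125 without vehicle 3. ATIC, CSGALNACT2 and RNF26 did not meet the rule without olaparib 2. With scaling factors from all genes, SRRM1, NEFH, HNRNPA2B1, CSGALNACT2, EIF3C and MT-ND4L had adjusted p-values of 0.064 to 0.172 in olaparib 1. As a rule chosen after the data were seen, on contrasts that share vehicle, it gives candidates.

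**Figure D4:**
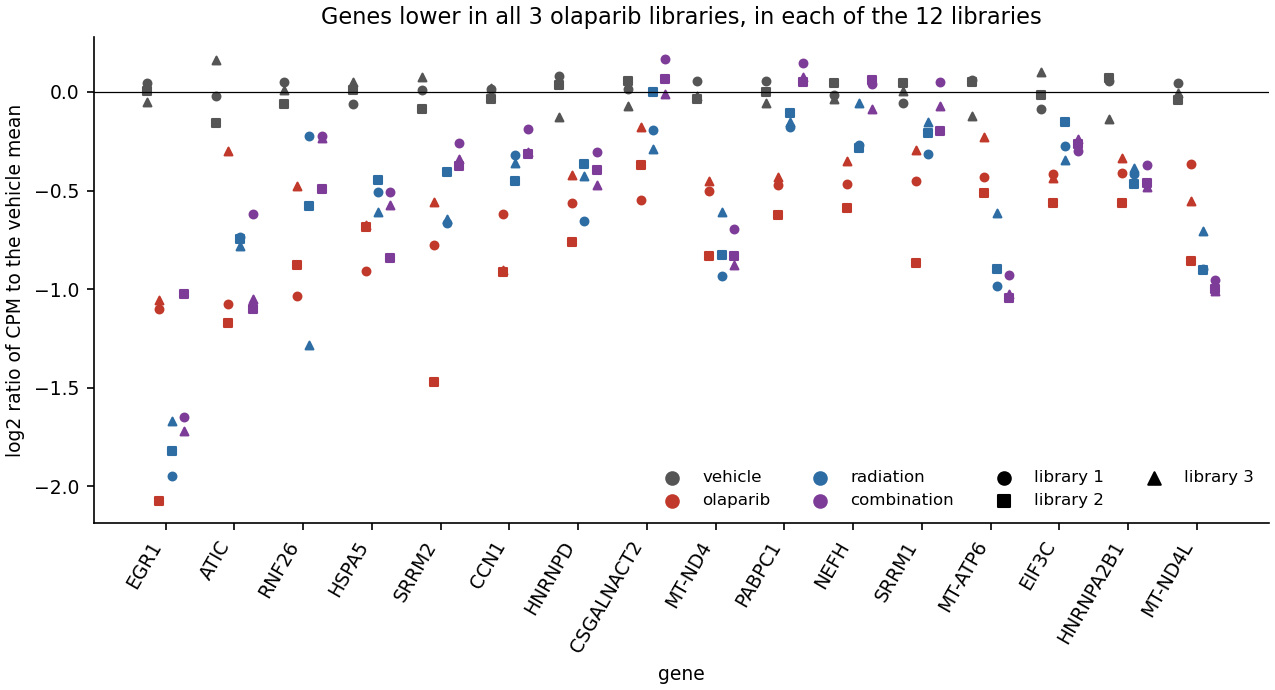
Log2 ratio of CPM to the vehicle mean in each of the 12 libraries (colour by group, symbol by library number) for 16 named genes that were lower in all 3 olaparib libraries. Red points lie below the grey vehicle points for each gene, while for PABPC1 and NEFH the purple combination points lie near or above 0.

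The radiation and combination libraries, which the rule did not use, were then read for these 18 genes. Both radiation 1 and radiation 2, without olaparib, lay below the lowest vehicle library in 16 of them, and the combination did in 13. These genes were chosen for lying off the same vehicle libraries: over all genes tested the shares are 13.2% and 7.93%, and over the 912 genes with each olaparib library below vehicle they are 50% and 41.3%. Between the combination and radiation 1 and 2, which differ by olaparib, edgeR called 10 of 31858 genes in 12 libraries (0.0314%). In the 18 genes the median log2 difference was 0.11, against 0.08 over all genes, and it was below 0 in 5. One of the 18 passed with 9 libraries, PABPC1, and it was higher in the combination (log2 0.23, edgeR adjusted p = 0.0347); with 9 libraries 155 of 30967 genes (0.501%) passed in that contrast. EGR1 shows the pattern: it had 11.4 and 12.4 CPM in radiation 1 and 2 and 13.3 to 21.6 CPM in the combination, against 10.4 to 21.1 CPM with olaparib alone. A fall particular to olaparib cannot be told apart from a high vehicle level in genes where vehicle stands above the 3 other groups.

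ACSM2B, a mitochondrial enzyme of fatty acid activation found mainly in kidney and liver, moved in opposite ways. It had 5.51, 4.17 and 5.86 CPM in vehicle, 0.729 CPM in olaparib 1, and 29.1 and 31.3 CPM in olaparib 2 and 3. The log2 change was -2.82 in olaparib 1 (SE 0.42, edgeR adjusted p = 0.0284) and 2.54 in olaparib 2 and 3 (SE 0.25, adjusted p = 2.29e-07). Radiation 3, at 10.4 CPM, was also above radiation 1 and 2, at 2.60 and 3.05 CPM. It was the one gene called in opposite directions, and its olaparib 1 call did not hold without vehicle 1 (adjusted p = 0.0649), combination 1 (0.0618) or combination 2 (0.0581).

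Some genes were low in olaparib 1 without meeting the rule for a change in the same way. ANP32B had 165.7 to 200.4 CPM in vehicle and 98.3, 143.1 and 189.3 CPM in olaparib 1, 2 and 3, so olaparib 3 lay inside the vehicle range. It fell in olaparib 1 (log2 -0.93, SE 0.14, edgeR adjusted p = 0.0284) and did not pass in olaparib 2 and 3 (log2 -0.17, adjusted p = 0.177). HSP90AA1, the stress-inducible cytosolic chaperone, had 554.0 to 645.5 CPM in vehicle and 407.7, 398.1 and 622.6 CPM in olaparib, and passed in olaparib 1 with 9 libraries (log2 -0.54, adjusted p = 0.000363). RPS16, a ribosomal protein, had 65.3 to 72.4 CPM and 27.6, 15.8 and 47.2 CPM, without overlap, but missed the threshold in olaparib 2 and 3 (log2 -1.14, adjusted p = 0.0598). With factors from all genes ANP32B (-0.97), HSP90AA1 (-1.02) and RPS16 (-1.96) passed there too.

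Among genes with at least 20 CPM in olaparib 2 and 3 and no call in olaparib 1, the 5 with the largest log2 rise were GOLGA6L6, of a multicopy family whose reads cannot be assigned with certainty, MUC16, a mucin of epithelial surfaces, RYR2, the calcium release channel of heart muscle, IGFN1, of skeletal muscle, and DNAH9, a motor of cilia. RYR2 had 0.117, 0.215 and 0.214 CPM in vehicle, 0.352 CPM in olaparib 1, and 23.1 and 27.5 CPM in olaparib 2 and 3 (log2 7.05, SE 0.48, edgeR adjusted p = 2.09e-09). MUC16 had 0 to 0.55 CPM in vehicle, 0.277 CPM in olaparib 1, and 33.6 and 35.5 CPM in olaparib 2 and 3. These genes belong to unrelated tissues, and each was also raised in radiation 3. There RYR2 had 2.99 CPM and MUC16 had 10.5 CPM, against at most 0.363 CPM in radiation 1 and 2. Genes so low elsewhere passed the count filter mainly through olaparib 2, olaparib 3 and radiation 3, which partly sets this overlap. By type, 57.0% of 8906 long noncoding and antisense genes, 46.5% of 17470 protein coding genes and 37.8% of 3302 pseudogenes rose in olaparib 2 and 3.

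The contrast of radiation 3 with radiation 1 and 2 shares no library with olaparib versus vehicle. Its median log2 change over all genes was 0.479, which became 0.199 with scaling factors from all genes. In it edgeR called 2214 of 31858 genes higher (6.95%). Of these, 2175 (98.2%) were also higher in olaparib 2 and 3, where they made 14% of the 15525. Of the 15525, 90.7% had a log2 change above 0 in radiation 3, against 72.2% of all genes. The count filter kept low genes mainly through the libraries in which they are high, which favours this overlap. For the 871 of the 15525 with at least 20 CPM in vehicle, the share was 82.5%. Of all genes of at least 20 CPM in vehicle it was 46.7%. Of the 1323 genes lower in olaparib 2 and 3, 73.0% were below 0 in radiation 3, against 27.5% of all genes, although the share is 53.3% among genes of at least 20 CPM. Across 10877 genes of at least 5 CPM in vehicle, the log2 changes of olaparib 2 and 3 and of radiation 3 had a Pearson r of 0.635 (Spearman 0.535), and those of olaparib 1 and radiation 3 had an r of -0.209. Genes are not independent replicates, and those within a library share its depth and scaling.

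PARP1, PARP2 and PARG, the genes nearest to the drug's action, did not pass the test in either contrast. PARP1 had 172.2, 180.8 and 199.2 CPM in vehicle and 187.5, 159.6 and 166.5 CPM in olaparib 1, 2 and 3, and the groups overlap (log2 0.03 and -0.18, edgeR adjusted p = 1 and 0.0885). PARP2 had 20.2 to 24.5 CPM in vehicle and 26.01, 20.3 and 17.9 CPM in olaparib. PARG, which removes ADP-ribose chains, had 30.6 to 33.8 CPM and 28.2, 33.6 and 38.5 CPM. This depends on the scaling: with factors from all genes, PARP1 (log2 -0.97, edgeR adjusted p = 2.49e-08), PARP2 (log2 -1.05, adjusted p = 4.64e-06) and PARG (log2 -0.65, adjusted p = 0.000118) passed as lower in olaparib 2 and 3. Of 26 genes of the PARP family and ADP-ribose turnover, 0 were called in olaparib 1 (1 higher and 1 lower at an unadjusted p under 0.05), and 6 were higher and 3 lower in olaparib 2 and 3, against 48.7% and 4.15% of all genes. The rises were largest in genes of low level: PARP10 had 0.244 to 0.937 CPM in vehicle, 0.352 CPM in olaparib 1, and 6.50 and 5.24 CPM in olaparib 2 and 3.

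Homologous recombination genes gave the same contrast between libraries. BRCA1 had 54.2, 57.7 and 50.6 CPM in vehicle and 64.4, 57.6 and 63.3 CPM in olaparib, with olaparib 2 inside the vehicle range (log2 0.25 and 0.16, edgeR adjusted p = 1 and 0.154). BRCA2 had 70.9 to 90.3 CPM in vehicle and 88.4, 80.9 and 87.3 CPM in olaparib. With factors from all genes both passed as lower in olaparib 2 and 3 (log2 -0.64 and -0.78, adjusted p = 1.22e-05 and 1.1e-06). Of 33 listed genes, 0 were called in olaparib 1 (2 higher at an unadjusted p under 0.05) and 15 were higher in olaparib 2 and 3, a share near the 48.7% of all genes; the median was 0.04 and 0.40, and the second became -0.39 with scaling factors from all genes. BRIP1, the helicase partner of BRCA1, had 31.1 to 32.2 CPM in vehicle, 34.1 CPM in olaparib 1, and 94.6 and 95.1 CPM in olaparib 2 and 3 (log2 1.58, SE 0.09, adjusted p = 3.5e-10); radiation 3, at 47.3 CPM, was above radiation 1 and 2, at 34.2 and 32.8 CPM. SLFN11, which blocks stressed forks and sensitises cells to PARP inhibitors, was near 0 in vehicle (0 to 0.195 CPM) and olaparib 1 (0.075 CPM), and 3.71 and 4.35 CPM in olaparib 2 and 3.

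Among targets of p53, CDKN1A, the inhibitor of cyclin-dependent kinases, had 0.977, 0.797 and 0.458 CPM in vehicle, 1.01 CPM in olaparib 1, and 4.27 and 5.78 CPM in olaparib 2 and 3 (log2 2.75, SE 0.54, edgeR adjusted p = 0.000391). In radiation 3 it had 1.32 CPM, between radiation 1 and 2 (1.49 and 0.835 CPM), and the combination had 1.96 to 2.88 CPM. This does not set it apart, since 14% of all genes higher in olaparib 2 and 3 also passed as higher in radiation 3. MDM2, the ligase that degrades p53, had 151.8 to 154.1 CPM in vehicle and 155.7, 151.4 and 151.0 CPM in olaparib; it passed as lower in olaparib 2 and 3 with factors from all genes (log2 -0.81, adjusted p = 5.98e-08). Of 31 listed targets, 0 were called in olaparib 1 and 11 were higher and 3 lower in olaparib 2 and 3, against 48.7% and 4.15% of all genes. Replication genes had medians of 0.06 in both contrasts over 45 genes, the second of which became -0.73 with scaling factors from all genes, and damage checkpoint genes had -0.04 and 0.06 over 25.

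Summed over their lists, interferon and chemokine genes were raised in olaparib 2 and 3, while olaparib 1 lay inside the vehicle range. Single genes near the floor could differ: CCL5 and STING1 lay above each vehicle library in olaparib 1. CCL5 had 0.195, 0.092 and 0.244 CPM in vehicle, 0.478 CPM in olaparib 1, and 4.21 and 6.39 CPM in olaparib 2 and 3 (log2 4.87, SE 0.81, edgeR adjusted p = 8.68e-05). Radiation 3 had 2.02 CPM of it, against 0.221 and 0.327 CPM in radiation 1 and 2. STING1 had 0 to 0.391 CPM in vehicle, 0.528 CPM in olaparib 1, and 5.20 and 5.65 CPM in olaparib 2 and 3, while CGAS, the sensor upstream, had 25.9 to 31.6 CPM in vehicle and 28.3, 28.6 and 36.2 CPM in olaparib. CXCL10 was too low to test, with 0 counts in vehicle and olaparib 1, 6 in olaparib 2, 5 in olaparib 3 and 2 in radiation 3. CD274, the ligand PD-L1, stayed under 0.2 CPM in vehicle and olaparib 1 and had 1.49 and 1.63 CPM in olaparib 2 and 3.

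Of 39 interferon-stimulated genes, 38 had enough counts to test; 26 were higher and 2 lower in olaparib 2 and 3, against 48.7% and 4.15% of all genes, and 0 were called in olaparib 1 (1 lower at an unadjusted p under 0.05). Summed over all 39, their level was 356.6 to 373.4 CPM in vehicle, 358.0 CPM in olaparib 1, 801.8 CPM in olaparib 2, 851.2 CPM in olaparib 3 and 473.8 CPM in radiation 3. Of 28 chemokine genes 12 could be tested, and the filter kept such genes mainly through the libraries in which they are high. The 28 summed to 11.85 to 15.1 CPM in vehicle, 14.1 CPM in olaparib 1, 67.7 and 84.2 CPM in olaparib 2 and 3, and 33.4 CPM in radiation 3, so these 3 libraries were the high ones here too. The 10 leukocyte markers summed to 1.80 to 3.91 CPM in vehicle, 2.97 CPM in olaparib 1, and 35.9 and 42.4 CPM in olaparib 2 and 3. The 5 endothelial markers had 1.65 to 3.52 CPM in vehicle and 51.03 and 50.07 CPM in olaparib 2 and 3, the 6 fibroblast markers 17.6 to 19.4 CPM and 69.03 and 81.8 CPM, and the 8 airway markers 2.87 to 4.65 CPM and 46.8 and 57.4 CPM. The summed levels of interferon genes, chemokines, olfactory receptors and markers of 4 unrelated cell types were thus high in the same 2 libraries, and what share of the chemokine rise belongs to the drug cannot be told apart from the difference between these libraries and olaparib 1.

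**Figure D5:**
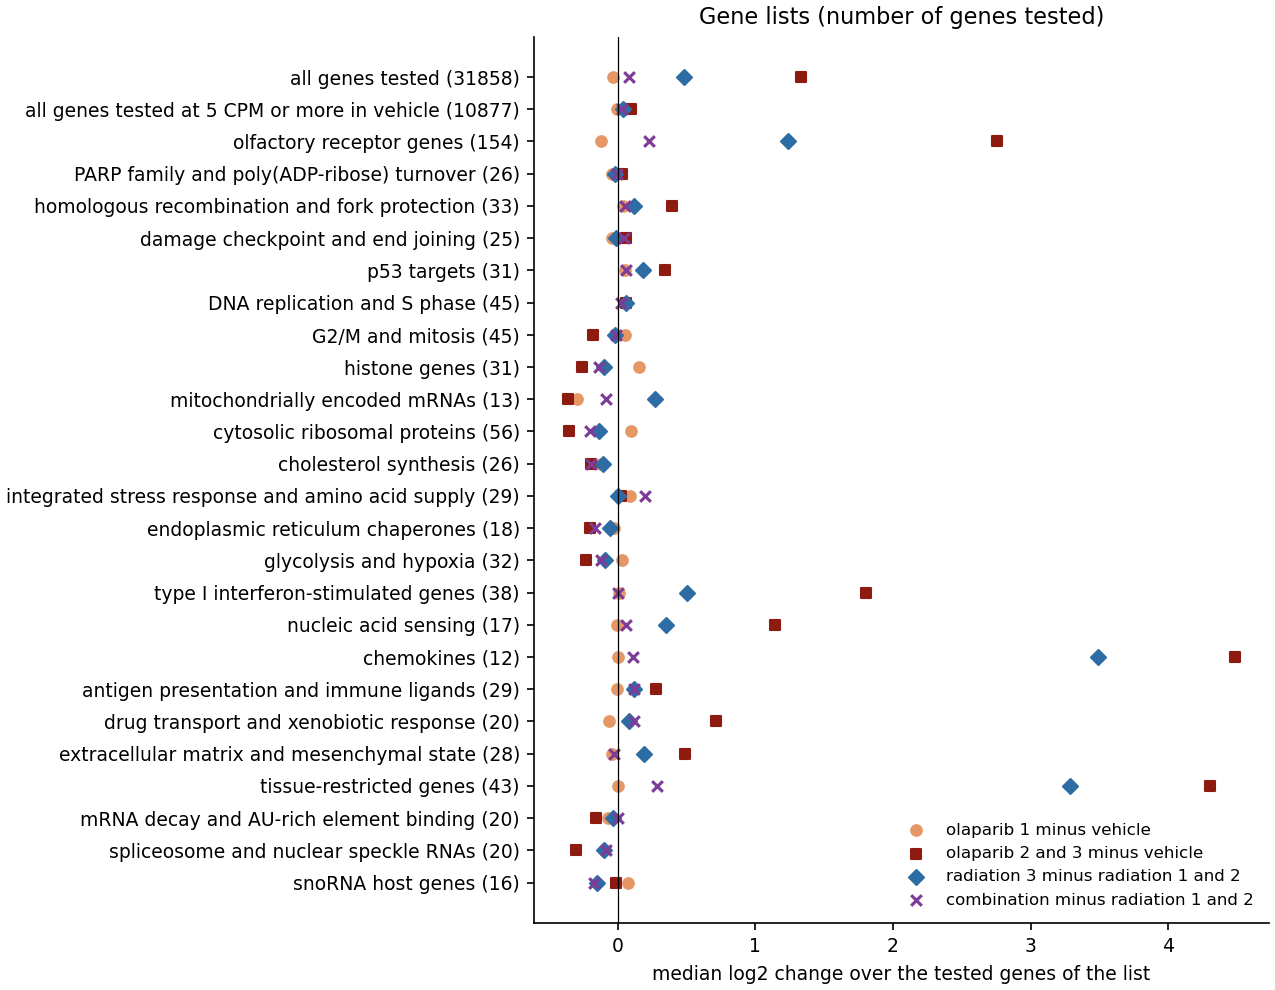
Median log2 change over the tested genes of each list (number in brackets) for 4 contrasts: olaparib 1 or olaparib 2 and 3 minus vehicle, and radiation 3 or the combination minus radiation 1 and 2. Lists of low genes show the members that passed the count filter. Chemokines (4.49 and 3.49), tissue-restricted genes (4.31 and 3.29) and olfactory receptors (2.76 and 1.24) are high in olaparib 2 and 3 and in radiation 3, while in olaparib 1 the medians of the lists drawn lie between -0.29 and 0.16.

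Abundant housekeeping groups were lower in olaparib 2 and 3. Of 56 cytosolic ribosomal protein genes, 40 were lower and 1 higher in olaparib 2 and 3 (median -0.36), while in olaparib 1 the median was 0.10, with 0 called in 12 libraries (6 higher and 1 lower at an unadjusted p under 0.05). RPL35 had a log2 value of 0.29 in olaparib 1 (adjusted p = 1) and fell by 0.46 in olaparib 2 and 3 (edgeR adjusted p = 0.00124). Histone genes (median 0.16 and -0.26, 10 of 31 lower in olaparib 2 and 3), glycolysis and hypoxia genes (0.03 and -0.23, 20 of 32 lower) and mitosis genes (0.05 and -0.18, 15 of 45 lower) showed the same order of medians. Of all genes, 13.1% fell in olaparib 2 and 3 in the class of 20 to 100 CPM in vehicle and 43.7% in the class of at least 100 CPM. In olaparib 1 no histone or replication gene was called.

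Among the markers of small cell lung cancer, 2 neuroendocrine markers were at or near 0 in vehicle: CHGA had 0 to 0.214 CPM and INSM1 no count. SBC5 carried YAP1 at 112.4 to 119.6 CPM and UCHL1 at 49.5 to 57.3 CPM. YAP1, a coactivator that marks the non-neuroendocrine subtype, had 103.6, 80.04 and 91.97 CPM in olaparib and fell in olaparib 2 and 3 (log2 -0.45, edgeR adjusted p = 0.000411). IGF2, a growth factor, had 11.6 to 13.5 CPM in vehicle, 8.48 CPM in olaparib 1, and 15.3 and 23.5 CPM in olaparib 2 and 3; it rose in the latter (log2 0.66, adjusted p = 0.00307) with a sign that turned (-0.14) with scaling factors from all genes. ABCB1, the efflux pump that exports olaparib, had 0.305 to 1.48 CPM in vehicle, 0.126 CPM in olaparib 1, and 7.98 and 8.09 CPM in olaparib 2 and 3 (log2 3.50, adjusted p = 0.000129), while radiation 3, at 1.39 CPM, lay near radiation 1 and 2, at 0.949 and 1.31 CPM. SLC7A5, an amino acid importer, had 9.88 to 12 CPM in vehicle and 9.31, 9.28 and 10.9 CPM in olaparib, and did not pass in either contrast, but passed as lower in olaparib 2 and 3 with factors from all genes (log2 -0.94, adjusted p = 0.000125).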

How the data were processed

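RNA was sequenced from 12 SBC5 libraries with a stranded total RNA kit, per the labels' protocols. The authors deposited estimated counts per gene (expected counts), assigned with kallisto 0.46.1 per the submitters' processing notes, which also name DESeq2. The transcriptome release is not given in the sources used here. Of 60649 rows, 44 pseudoautosomal copies were added to their X counterparts, and the expected counts were rounded. Members, lists and rules were chosen with earlier results of these data known. In R 4.3.3, edgeR 4.0.16 fitted robust quasi-likelihood models (default filter, 31858 genes; TMM factors from 5970 genes of at least 20 CPM; Benjamini-Hochberg over all genes, threshold 0.05) with 4 group means, or with 6 means that separated olaparib 1, olaparib 2 and 3, and radiation 3 (6 residual degrees of freedom). The 9-library fit left out olaparib 2, olaparib 3 and radiation 3. Each SE was derived from the log2 change and its F statistic. Genes were named by rules: called genes, called list members with the largest changes, the largest rises in olaparib 2 and 3, and a list of PARP-related genes; others were picked after their values were seen. The fits were tested on simulated data, which held no raised counts of silent genes. Of 100 genes changed 1.5-fold there, the olaparib 1 contrast recovered 23%, olaparib 2 and 3 recovered 42%, and 3 against 3 recovered 53%. Of 100 genes changed 3-fold, they recovered 93%, 95% and 97%. Genes not called in olaparib 1 may therefore include changes of about 1.5-fold. DESeq2 1.42.0 and limma 3.58.1 served as alternatives. Promoter windows are RefSeq's. Some genes of the lists are not reported here.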

Additional observations from a re-analysis of the deposited data

Results flagged for a closer look

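In 3 of 31858 genes the difference between olaparib 1 and vehicle differed from that between the combination and radiation 1 and 2, by a test of the difference in edgeR (72 of 30967 genes in the 9-library fit). For ACSM2B, of kidney and liver fatty acid metabolism, the olaparib difference without radiation minus that with radiation was -3.59 on the log2 scale (SE 0.50, adjusted p = 0.0199). It had 0.729 CPM in olaparib 1 against 4.17 to 5.86 CPM in vehicle, and 3.07 to 5.71 CPM in the combination against 2.60 and 3.05 CPM in radiation 1 and 2. For PABPC1, the poly(A)-binding protein, the same difference was -0.70 (SE 0.10, adjusted p = 0.0199). It had 1130 CPM in olaparib 1 against 1505 to 1627 CPM in vehicle, and 1621 to 1735 CPM in the combination against 1386 and 1455 CPM in radiation 1 and 2. The other gene, NPIPB4, belongs to a multicopy family whose reads cannot be assigned with certainty (-1.45, SE 0.21, adjusted p = 0.0199); it is named because its test passed. All 3 rest on the single library olaparib 1.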

How the results depend on the processing

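The count of 3 genes for 3 olaparib against 3 vehicle libraries became 0 with TMM factors from all genes, with DESeq2 size factors and in the 6 libraries alone (9369, 9678 and 7230 at an unadjusted p under 0.05), 1 with library size only, 48 without a count filter, 9839 with DESeq2, 9 with limma-voom and 0 at a log2 change of at least 1. In 9 libraries, where olaparib 1 is the sole olaparib library, the count was 25. Leaving out a library gave 0 to 13682. Replicate numbers were not taken as pairs (correlations -0.354, 0.0153 and -0.323); with the replicate number as a block, 1 gene was called, 2 changed the same way and 0 in opposite ways. The 1 gene changed the same way became 3 with TMM factors from all genes or DESeq2 size factors, 24 unfiltered, 20 with DESeq2, 14 with limma-voom, 0 at a log2 change of at least 1, and 1 to 11 with a library left out. The 1 opposite gene became 15 unfiltered, 9 with DESeq2, and 0 with limma-voom or 6 libraries (0 to 2 with a library left out). The 18 genes of the 9-library rule became 10 with library size only, 30 unfiltered, 41 with DESeq2, 36 with limma-voom, 3 at a log2 change of at least 1 and 11 to 24 with a library left out. CCN1 met that rule in 20 of 20 settings, and HSPA5, EGR1, PABPC1, SRRM2 and NUDT4B in 19. These settings leave out the limit of a log2 change of at least 1. CCN1, HSPA5, PABPC1 and SRRM2 changed by less than that in olaparib 1. Signs in olaparib 2 and 3 turned with TMM factors from all genes for CLSPN (-0.18), WEE1 (-0.25), ESPL1 (-0.17), RPS14 (-0.075), SNHG5 (-0.40), BRCA1 (-0.64), BRCA2 (-0.78), CGAS (-0.66), IGF2 (-0.14) and PARG (-0.65), and with DESeq2 size factors for CLSPN (-0.082), WEE1 (-0.15), ESPL1 (-0.079), SNHG5 (-0.30), BRCA1 (-0.54), BRCA2 (-0.69), CGAS (-0.57), IGF2 (-0.049) and PARG (-0.56). These scalings lower all values of that contrast by their construction. Olaparib 2 and 3 were shallower than olaparib 1, and genes under 1 CPM in vehicle took 3.87% and 4.13% of their counts, against 0.4598% in olaparib 1.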
